A study of Mus musculus with 4 samples.

Results

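Endothelial cells line the vessels of the brain, and pericytes wrap the capillaries from outside. Described here are 10 genes used as markers of these cells: Pecam1, Cdh5, Cldn5, Slc2a1, Flt1, Kdr, Tek, Tie1, Eng and Pdgfrb. Every probe set (a set of short probes that together read a transcript) was taken whose single gene symbol in the array annotation was one of the 10. This gave 12 of the 12422 probe sets that are not manufacturer's controls, with 2 each for Flt1 and Tie1 and 1 for each of the other genes. The rule by which probe sets were taken uses annotation alone; the list of genes was drawn up with earlier results of these data known.

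The arrays hold RNA of the left hippocampus from male mice that were 12 months old. The 2 control arrays hold nontransgenic mice (C57B6/SJL). The 2 APPSw arrays hold Tg2576 mice, a transgenic line that overexpresses amyloid precursor protein carrying the Swedish mutation and deposits amyloid in brain tissue and vessel walls with age. In that line a prion protein gene promoter drives the transgene. Each array is described as the RNA of 1 mouse. The labels name no batch, and they do not say whether the mice were littermates. A p-value here weighs only the spread of these 4 arrays, part of which may be technical. The tissue is whole, and a lower signal from fewer vascular cells cannot be told apart from one due to less RNA per cell.

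In brain capillaries, endothelial cells joined by tight junctions form the blood-brain barrier, and glucose crosses them on the carrier encoded by Slc2a1. VEGF acts on endothelial cells through the receptors encoded by Flt1 and Kdr, and angiopoietins act through the one encoded by Tek. PDGF-B, which endothelial cells release, recruits and keeps pericytes through the receptor encoded by Pdgfrb.

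The vascular markers had differences of both signs, and none passed the test. By limma, a linear model fitted across all probe sets that pass a filter on dim signal, 0 of the 7 member probe sets tested passed an adjusted p of 0.05, against 0% of the 7453 tested (lowest adjusted p 0.599). At an unadjusted p under 0.05 there was 1 member, Pdgfrb, against 8.05% of all probe sets tested (352 higher and 248 lower in APPSw). Its mean passed the filter only through the control arrays, so this count supports nothing about the members. Pdgfrb and Slc2a1 had both APPSw arrays below both controls, as did 19.0% of all probe sets tested, and Eng had both above, as did 22.2%. Groups overlapped for the other 4 probe sets tested. The 7 had 3 differences above 0 and 4 below, with a median log2 difference of -0.0011 where all probe sets tested had 0.02.

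The filter kept probe sets with a geometric mean signal of at least 565. The 5 left out were those of Cdh5, Kdr and Tek and both of Tie1, so the transcripts of 4 of the 10 genes were read only at dim signal. For these the difference comes from the same model fitted to all 12422 probe sets, in which 0% passed the adjusted threshold. Of these 5, 2 had both APPSw arrays above both controls (Tek and 1 Tie1 probe set) and 0 had both below, where the shares over all 12422 were 23.6% and 15.7%. Over all 12 member probe sets the median log2 difference was 0.04, beside 0.06 over all 12422. With 2 arrays per group, an exact permutation test cannot give a two-sided p below 0.33.

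**Figure D1:**
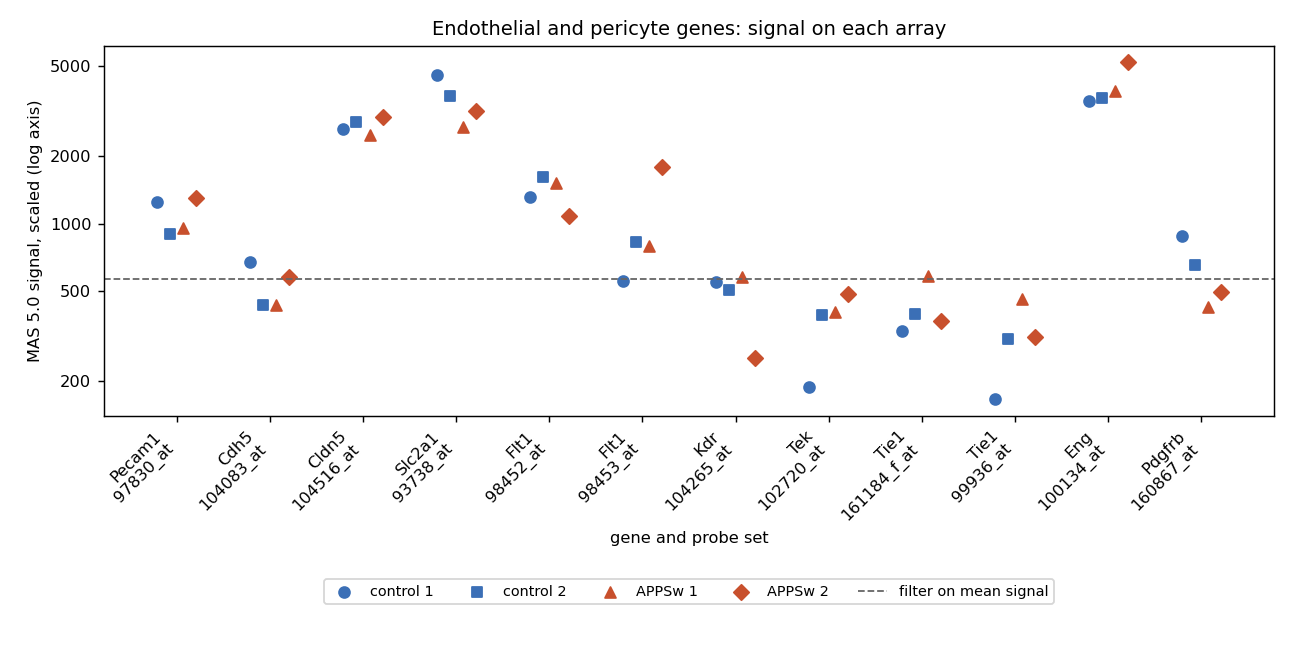
Scaled signal (log axis) of the 12 probe sets on control 1, control 2, APPSw 1 and APPSw 2, 1 point per array, with a dashed line at the filter's signal of 565. The red APPSw points lie below both blue control points for Slc2a1 and Pdgfrb, and above both for Eng, Tek and the Tie1 probe set 99936_at.

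The stretch of 250 bases before the start of transcription is shown for 4 genes. They are 4 of the 5 with a probe set whose groups did not overlap. Such separation was common: over all 12422 probe sets, 23.6% had both APPSw arrays above both controls and 15.7% both below. It served only to choose which windows to print. The sequences are from RefSeq's promoter windows (GRCm38.p6), matched by symbol for 7 of the 10 genes, and each runs 5′ to 3′ on the strand of its gene. Capitals mark any match, on either strand, to 3 short motifs that did not overlap here: AGGAAG, read by ETS factors of the endothelium, TAAACA, read by forkhead factors, and ACGTG, the core of the hypoxia response element. Slc2a1 lies at chr4:119108495-119108744 (plus strand), Eng at chr2:32646345-32646594 (plus strand), Tek at chr4:94739039-94739288 (plus strand) and Tie1 at chr4:118489850-118490099 (minus strand).
Slc2a1: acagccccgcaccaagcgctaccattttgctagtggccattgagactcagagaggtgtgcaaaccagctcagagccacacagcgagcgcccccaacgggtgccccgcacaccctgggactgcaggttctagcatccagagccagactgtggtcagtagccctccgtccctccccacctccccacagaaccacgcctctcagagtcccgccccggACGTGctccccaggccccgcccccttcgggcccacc
Eng: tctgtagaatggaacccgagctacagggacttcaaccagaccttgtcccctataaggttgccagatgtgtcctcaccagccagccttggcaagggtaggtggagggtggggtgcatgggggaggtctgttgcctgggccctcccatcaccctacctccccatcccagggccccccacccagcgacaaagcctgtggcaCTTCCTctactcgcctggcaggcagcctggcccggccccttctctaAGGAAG
Tek: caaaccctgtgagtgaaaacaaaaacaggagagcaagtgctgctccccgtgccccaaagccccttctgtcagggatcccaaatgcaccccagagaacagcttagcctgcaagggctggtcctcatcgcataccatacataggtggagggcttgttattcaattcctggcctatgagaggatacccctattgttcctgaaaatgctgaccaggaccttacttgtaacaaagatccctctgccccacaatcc
Tie1: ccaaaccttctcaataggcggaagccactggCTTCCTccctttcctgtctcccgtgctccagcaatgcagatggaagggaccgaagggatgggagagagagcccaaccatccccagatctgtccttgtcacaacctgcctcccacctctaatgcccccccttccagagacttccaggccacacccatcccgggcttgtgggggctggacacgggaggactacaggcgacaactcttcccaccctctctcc

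AGGAAG was found before 3 of the 7 genes (Eng, Tie1 and Flt1), and in 29.5% of all 32851 RefSeq windows of this length. ACGTG was found before 1, Slc2a1, where it begins 36 bases before the start, and in 16.6% of all windows. TAAACA was found before 0 of the 7 and in 12.0% of all windows. Eng held 2 matches, and Tek held 0 to any of the 3. These are matches of letters and say nothing of binding.

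Pecam1 encodes CD31, an adhesion molecule at contacts between endothelial cells. Its control signals were 1242 and 901, and its APPSw signals 954 and 1299. The groups overlapped, with control 2 lowest and APPSw 2 highest, and each group's arrays differed by more (1.38-fold in controls and 1.36-fold in APPSw mice) than the group means did. The log2 difference, APPSw minus control, was 0.07 (SE 0.25, adjusted p = 0.945). It was -0.16 without control 2, -0.15 without APPSw 2 and -0.0056 after quantile normalization, so it had no stable sign.

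Cdh5 encodes VE-cadherin, the main cadherin of endothelial adherens junctions. Its control signals were 677 and 434, and its APPSw signals 437 and 578, and again the groups overlapped. The log2 difference was -0.11 (SE 0.33, adjusted p = 0.949 in the fit with no filter), and 0.21 without control 1 and 0.09 without APPSw 1. Only 2 of the 4 arrays reached the filter's signal.

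Cldn5, claudin-5, is the main sealing protein of tight junctions in brain endothelium. Its control signals were 2624 and 2813, and its APPSw signals 2476 and 2977. The arrays lay close together, with APPSw 1 lowest and APPSw 2 highest, and both controls between them. The log2 difference was -0.0011 (SE 0.19, adjusted p = 0.999) with a 95% interval of -0.46 to 0.46, and its sign was positive without control 2 (0.05) or without APPSw 1 (0.13). Changes of up to 0.46 on the log2 scale in either direction therefore lie within this interval.

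Slc2a1 encodes GLUT1, the glucose carrier of the blood-brain barrier, which astrocytes and choroid plexus epithelium also make. Its control signals were 4563 and 3692, and its APPSw signals 2682 and 3166. Both APPSw arrays were below both controls, the nearest pair differing by 1.17-fold, while arrays of a group differed by 1.24-fold (controls) and 1.18-fold (APPSw). The log2 difference was -0.49 (SE 0.20, unadjusted p = 0.052, adjusted p = 0.612), a geometric mean 1.41-fold higher in controls, with a 95% interval of -0.99 to 0.0050. With each array left out it was -0.65 to -0.34, where a change of sign was not possible because the groups did not overlap. It did not pass the test.

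The Slc2a1 values can be read beside the other facilitative glucose carriers, of which 5 of 10 listed genes were measured and 3 probe sets of 2 genes tested. None of the 3 passed (lowest adjusted p 0.849, and 0 had an unadjusted p under 0.05). Slc2a3, the main glucose carrier of neurons, had control signals of 2539 and 3393 and APPSw signals of 3067 and 3231 by its brighter probe set, which is a log2 change of 0.10 (SE 0.21), and -0.09 by the other. Slc2a8, an intracellular carrier, had a log2 change of 0.16 (SE 0.23). In both genes the groups overlapped.

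Flt1 encodes VEGF receptor 1, which binds VEGF tightly and is also made as a soluble form. Its probe sets gave opposite signs. The probe set 98452_at had control signals of 1319 and 1614 and APPSw signals of 1513 and 1076, which is a log2 change of -0.19 (SE 0.24, adjusted p = 0.828). The probe set 98453_at had 557 and 825 on the control arrays, 799 on APPSw 1 and 1791 on APPSw 2, which is a log2 change of 0.82 (SE 0.42, adjusted p = 0.620). The arrays of a group overlapped with the other group in both. APPSw 2 was the lowest array by the first probe set and the highest by the second: without it the differences were 0.053 and 0.24, and without APPSw 1 they were -0.44 and 1.40. The Flt1 transcripts that each probe set reads are not named in the annotation used here.

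Kdr encodes VEGF receptor 2, the main signalling receptor for VEGF in endothelium. Its signals were 549 and 506 on the control arrays, 578 on APPSw 1 and 253 on APPSw 2. APPSw 1 was the highest of the 4 arrays and APPSw 2 the lowest. The log2 difference of -0.46 (SE 0.47, adjusted p = 0.845 in the fit with no filter) rested on APPSw 2, and was 0.13 without it. The APPSw arrays differed by 2.28-fold from each other.

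Tek encodes TIE2, the receptor for angiopoietins, and its control signals were 189 and 392, and its APPSw signals 404 and 485. Both APPSw arrays were above both controls, but the nearest pair differed by 1.03-fold while the controls differed by 2.07-fold. The log2 difference was 0.70 (SE 0.44, adjusted p = 0.784 in the fit with no filter). It was 0.18 without control 1 and 1.23 without control 2. No array reached the filter's signal.

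Tie1, the related receptor that pairs with TIE2 and has no well-established ligand of its own, was dim by both probe sets. The probe set 99936_at had control signals of 166 and 308 and APPSw signals of 465 and 315, and 161184_f_at had control signals of 334 and 398 and APPSw signals of 583 and 369. The groups were apart by the first, with a nearest pair 1.02-fold apart, and overlapped by the second. The log2 differences were 0.76 (SE 0.43, adjusted p = 0.778) and 0.35 (SE 0.32, adjusted p = 0.830), both in the fit with no filter. The first was 0.31 without control 1 and 1.20 without control 2, and the second was 0.02 without APPSw 1. The letter f in a probe set's name marks probes that may match a family of related sequences, so 161184_f_at is the less certain of the pair. Control 1 had the lowest signal in Tek and in both Tie1 probe sets.

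Eng encodes endoglin, a co-receptor for TGF-beta and BMP ligands on endothelium. Its signals were 3518 and 3628 on the control arrays, 3878 on APPSw 1 and 5199.6 on APPSw 2. The controls differed by 1.03-fold and the APPSw arrays by 1.34-fold, with APPSw 1 only 1.07-fold above control 2. The log2 difference was 0.33 (SE 0.21, adjusted p = 0.664), a geometric mean 1.26-fold higher in APPSw mice, with a 95% interval of -0.19 to 0.85. It was 0.54 without APPSw 1 and 0.12 without APPSw 2, so most of it came from APPSw 2.

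Pdgfrb, the receptor for PDGF-B on pericytes and other mural cells, is also made by fibroblasts. Its control signals were 882 and 657, and its APPSw signals 427 and 499. Both APPSw arrays were below both controls, the nearest pair differing by 1.32-fold, and both fell under the filter's signal of 565 while both controls were above it. The log2 difference was -0.72, a geometric mean 1.65-fold higher in controls. In the fit with no filter, which does not depend on the control arrays passing, its SE was 0.25 (unadjusted p = 0.049, adjusted p = 0.750) with an unadjusted 95% interval of -1.44 to -0.0027. In the filtered fit the SE was 0.22 (unadjusted p = 0.017, adjusted p = 0.599) with an interval of -1.26 to -0.18. With each array left out it ranged from -0.93 to -0.51. It did not pass the adjusted test in either fit. Of the 10 genes Pdgfrb alone stands here for pericytes, by 1 probe set.

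**Figure D2:**
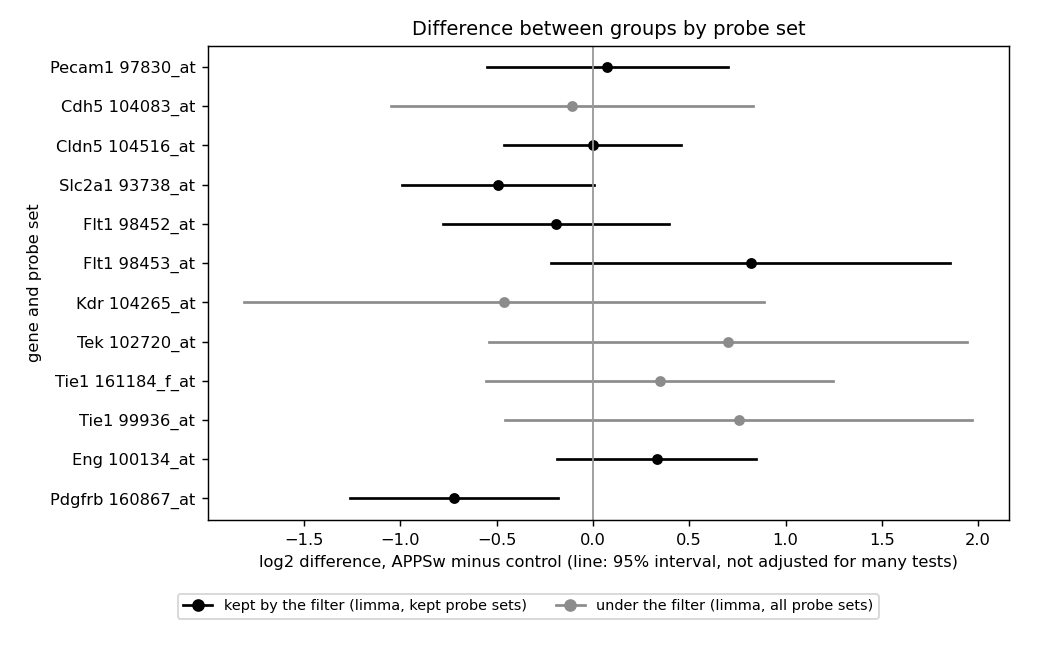
Log2 difference between APPSw and control (x axis) for each of the 12 probe sets (y axis), with points for the estimates and lines for limma's 95% intervals, which are not adjusted for many tests. Black marks probe sets kept by the filter and grey the 5 under it; only the Pdgfrb interval, -1.26 to -0.18, lies wholly on 1 side of 0, and with no filter it was -1.44 to -0.0027.

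The members were not brightest on the same array: of the 12 probe sets, 3 were highest in control 1, 1 in control 2, 3 in APPSw 1 and 5 in APPSw 2. The lowest signal was in control 1 for 5, in control 2 for 2, in APPSw 1 for 3 and in APPSw 2 for 2. Among the 7 tested, the median deviation from the control mean was -0.13 in APPSw 1 and 0.13 in APPSw 2. A member probe set differed by a median of 0.31 on the log2 scale between the controls and 0.42 between the APPSw arrays, beside 0.19 and 0.24 over all probe sets tested. In 5 of the 7, the arrays of at least 1 group differed by more than the group means did. The exceptions were Slc2a1 and Pdgfrb. The same count was not made over all probe sets tested, so whether 5 of 7 is usual is not known.

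Ligands of these receptors and receptors that act with them were measured for 22 of 24 listed genes, and 17 probe sets of 13 genes were tested. By limma 0 passed in either direction and 0 had an unadjusted p under 0.05 (lowest adjusted p 0.620). The differences lay above 0 for 12 and below for 5, with a median of 0.19 beside 0.02 for all probe sets tested. This median was 0.11 after quantile normalization, 0.07 with a stricter filter and 0.07 to 0.18 with an array left out.

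Pdgfb, the ligand of the receptor encoded by Pdgfrb, had control signals of 770 and 686 and APPSw signals of 1090.0 and 843, which is a log2 change of 0.40 (SE 0.20, adjusted p = 0.620). Both APPSw arrays were above both controls, opposite in sign to Pdgfrb. Vegfa, the main ligand of the receptors encoded by Flt1 and Kdr, had control signals of 1001 and 1103 and APPSw signals of 790 and 930, which is a log2 change of -0.29 (SE 0.18, adjusted p = 0.662), with both APPSw arrays lower. Nrp1, neuropilin-1, a VEGF co-receptor, had log2 changes of -0.02 (SE 0.19) and 0.25 (SE 0.29) by different probe sets.

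Acvrl1 encodes ALK1, the endothelial BMP receptor that endoglin assists. Its 3 probe sets differed in log2 by 0.32 (SE 0.17, adjusted p = 0.624), 0.16 (SE 0.17) and -0.05 (SE 0.21). By the first, the control signals were 1323 and 1348 and the APPSw signals 1748 and 1596, and the groups did not overlap, as for Eng. Bmp6, a BMP ligand, had control signals of 1276 and 463 and APPSw signals of 2154 and 1072, which is a log2 change of 0.98 (SE 0.55) with overlapping groups, and 0.34 by a dim probe set.

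Other endothelial genes were measured for 45 of 60 listed, and 28 probe sets of 24 genes were tested. By limma 0 passed, 1 had an unadjusted p under 0.05 and was higher, and the median log2 difference was 0.01 (15 above 0 and 13 below). This median had no stable sign: it was -0.07 after quantile normalization, -0.098 with the stricter filter and -0.07 without control 1. That 1 was F11r, the junctional adhesion molecule JAM-A, which other cell types also make. It had control signals of 1057 and 1136 and APPSw signals of 1920 and 1509.5, which is a log2 change of 0.64 (SE 0.20, adjusted p = 0.599). Tjp1, which encodes the tight junction scaffold ZO-1, had control signals of 5473 and 6817 and APPSw signals of 4417 and 4963.5, which is a log2 change of -0.38 (SE 0.20, adjusted p = 0.620). A dim Tjp1 probe set had -0.94 with overlapping groups.

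Sox17, a transcription factor of arterial endothelium, differed in log2 by 0.44 (SE 0.20, adjusted p = 0.612), and by -0.07 by a dim probe set. Notch1, a receptor with roles in arterial endothelium, had log2 changes of 0.32 (SE 0.17) by 1 probe set and of -0.48 (SE 0.60) by another. Slc3a2, the heavy chain of amino acid carriers in many cell types, had a log2 change of 0.098 (SE 0.20). None of these passed the test.

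Other genes of pericytes and smooth muscle were measured for 16 of 25 listed, and 11 probe sets of 10 genes were tested. By limma 0 passed and 1, lower, had an unadjusted p under 0.05. The median log2 difference was -0.09 (5 above 0 and 6 below), and it was 0.26 without APPSw 2, 0.17 with no filter and 0.07 with the stricter filter. Rgs5, a regulator of G protein signalling that marks pericytes, had control signals of 772 and 1158 and APPSw signals of 483 and 661 by 1 probe set, which is a log2 change of -0.74 (SE 0.27, adjusted p = 0.609). Both APPSw arrays were lower, as for Pdgfrb, while Vtn and Mylk of the same list had both above both controls. The other Rgs5 probe set had control signals of 1918 and 1237 and APPSw signals of 1270.1 and 1539, a log2 change of -0.14 (SE 0.26) with overlapping groups.

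Vtn, vitronectin, had a log2 change of 0.35 (SE 0.20). That of Gucy1b1, a subunit of soluble guanylate cyclase, was -0.33 (SE 0.19), and that of Mylk, myosin light chain kinase, was 0.23 (SE 0.18). Of the 11 mural probe sets tested, 2 had both APPSw arrays above both controls (Vtn and Mylk). As many as 2 had both below (Gucy1b1 and 1 of Rgs5). The shares over all probe sets tested were 22.2% above and 19.0% below.

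Genes of the vascular basement membrane were measured for 16 of 16, and 12 probe sets of 10 genes were tested. By limma 0 passed and 1, higher, had an unadjusted p under 0.05, with a median log2 difference of 0.07 (6 above 0 and 6 below), which was -0.10 without APPSw 1, -0.04 without control 2, -0.09 with the stricter filter and 0.25 with no filter. The laminin chain genes Lamb1 and Lamc1 had log2 changes of 0.57 (SE 0.20, adjusted p = 0.605) and 0.47 (SE 0.20, adjusted p = 0.612) by probe sets whose names carry the letter f, and the other Lamb1 probe set had 0.18 (SE 0.30). Fn1, fibronectin, had a log2 change of 0.41 (SE 0.17, adjusted p = 0.612). Sparc, a matrix protein that endothelium makes in quantity, had control signals of 4885 and 5513 and APPSw signals of 2933 and 4393.5, which is a log2 change of -0.53 (SE 0.24, adjusted p = 0.612). Agrn, agrin, had log2 changes of -0.25 (SE 0.18) and -0.46 (SE 0.21) by its 2 probe sets.

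Markers of neighbouring tissue and of blood differed between the arrays. Choroid plexus markers (12 of 20 genes, 17 probe sets) had a summed signal of 18908 to 28153 in controls, 150616 in APPSw 1 and 22490.5 in APPSw 2, with Ttr at 83384 in APPSw 1. Choroid plexus has vessels of its own and makes Slc2a1, which was lowest in that array. Markers of meninges and fibroblasts (14 of 16 genes, 21 probe sets), cells that also make Pdgfrb, summed to 94592 to 104901 in controls and 161089 and 115052 in APPSw mice. Ptgds weighs heavily in these sums. Its brightest probe set alone had 33232 and 37954 on the control arrays, 61773 on APPSw 1 and 35415 on APPSw 2. Over the 10 probe sets tested of this list, the median log2 difference was 0.555 (9 above 0 and 1 below). Col1a1 had a log2 change of 0.57, and 1.53 by a dim probe set, while Pdgfrb was lower. Col3a1 of the same list, dim by every probe set, had -0.71, -0.20 and 1.77. Erythrocyte genes (5 of 10, 6 probe sets) summed to 10677 and 14043 on the control arrays, to 14053 on APPSw 1 and to 23695 on APPSw 2, the array with the highest Eng signal and the outlying Flt1 and Kdr values. Of these markers 0 were at a signal of 0. The part of choroid plexus, meninges or blood in the vascular values was not tested.

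Astrocyte markers (9 of 12 genes), which include cells that make Slc2a1, had summed control signals of 221190 and 222924 and summed APPSw signals of 214900 and 208110. Of their 13 probe sets tested, 5 differences lay above 0 and 8 below, with a median of -0.14. Both APPSw arrays were above both controls in 4 and below in 4, where the shares over all probe sets tested were 22.2% and 19.0%. Gfap differed in log2 by -0.80 and -0.24 by its probe sets. The 4 above both controls were those of Aqp4 (0.50 and 0.38) and Glul (0.53 and 0.33). The 4 below were 1 each of Gfap, Gja1, Apoe and Slc1a2. Markers of hippocampal principal neurons were present, with Nrgn at 9474 or more on every array, and their median deviation was -0.29 in APPSw 1 and -0.64 in APPSw 2. Of their 14 probe sets tested, 3 differences lay above 0 and 11 below. Those above were 1 of Gria1 (0.37, with -0.67 by the other) and both of Camk2a (0.44 and 0.0006), while Nrgn had -0.71. The median deviation of microglial markers was 0.22 in both APPSw arrays, and that of oligodendrocyte markers -0.15 and -0.34. The microglial median log2 difference of 0.28 (9 above 0 and 2 below) depended on the setting. It fell to 0.07 without control 2, 0.11 with no filter and 0.13 with the stricter filter. The summed microglial signal did not rise: both APPSw sums, 46539 and 50026, lay between those of control 2 (45429) and control 1 (51772). None of the probe sets on these lists passed limma's test, and their part in the vascular values was not tested.

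**Figure D3:**
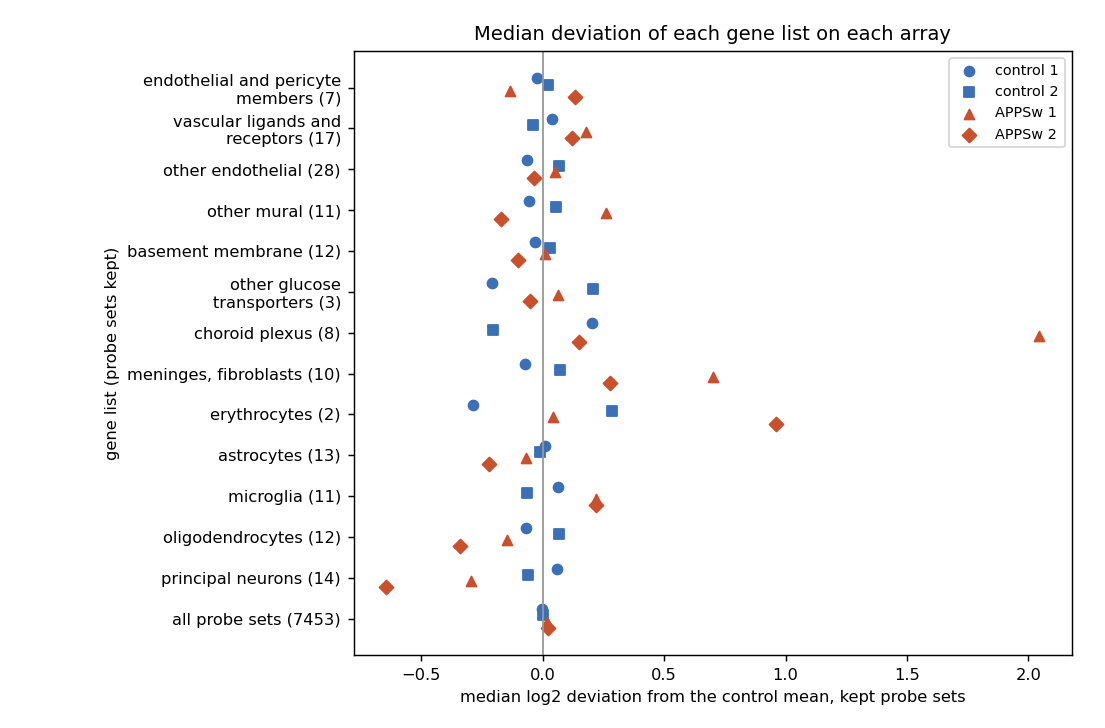
Median log2 deviation from the control mean (x axis) of each gene list's kept probe sets on each of the 4 arrays (y axis, with the number of probe sets). The median of the endothelial and pericyte members is -0.13 in APPSw 1 and 0.13 in APPSw 2. Their single kept probe sets, not drawn, lie from -0.83 (Pdgfrb, APPSw 1) to 1.40 (Flt1 98453_at, APPSw 2). The median of choroid plexus markers reaches 2.04 in APPSw 1 and that of erythrocyte genes 0.96 in APPSw 2.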

How the data were processed

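MAS 5.0 signal intensities on a linear scale, scaled by the authors to 2500 per the labels, were the input. The sources used here do not give the background settings. Manufacturer's controls (66) and probe sets whose mean log2 signal fell under the 40th percentile were left out; nothing more was normalized. Groups were compared on log2 signals by lmFit and eBayes of limma 3.58.1 (R 4.3.3), two-sided, with Benjamini-Hochberg adjustment across 7453 probe sets and 2 residual and 3.70 prior degrees of freedom. The fit was tested on simulated data. Precision is limited by the number of arrays. All 12 member probe sets matched RefSeq by gene identifier.

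The members and lists were chosen with earlier results of these data known. Besides all members, the rule named up to 4 genes of each vascular list with the largest moderated statistic and its brightest gene, up to 2 brightest genes of each other marker list, and Ttr, Col1a1 and Gfap in any case; some are not printed. Settings varied 1 at a time were quantile normalization, the filter (none, or the 60th percentile), a pseudocount of 250, a block for the replicate number, a prior variance with an intensity trend, 1 probe set per gene, and leaving out each array, where the lone array of a group borrows the spread of the other.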

Additional observations from a re-analysis of the deposited data

How the results depend on the processing

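With limma, 0 probe sets passed under any of the 10 alternatives (0 to 0 with an array left out), with 402 to 816 at an unadjusted p under 0.05. The median over member probe sets was -0.13 to 0.13 with an array left out. With 1 probe set per gene it was -0.097, where the main setting had -0.0011, the value of the Cldn5 probe set. The differences of Pdgfrb, Slc2a1, Eng and the Flt1 probe set 98453_at kept their sign under every alternative they entered, and Tek and Tie1 with each array left out. Much of this was fixed in advance. In Pdgfrb, Slc2a1, Eng, Tek and the Tie1 probe set 99936_at the groups did not overlap, so leaving out an array could not change the sign. The filters, the block and the trend leave a difference as it is. Pecam1 was -0.0056 after quantile normalization, and -0.16 to 0.31 with an array left out. The leave-one-out range was -0.13 to 0.13 for Cldn5, -0.44 to 0.053 for the Flt1 probe set 98452_at, -1.06 to 0.13 for Kdr and -0.43 to 0.21 for Cdh5. The adjusted p of Pdgfrb ranged from 0.505 to 0.888 and that of Slc2a1 from 0.496 to 0.943 over all settings. At the 60th percentile filter 3 member probe sets remained. With the replicate number as a block, 0 probe sets were called. The member median stayed at -0.0011, as it had to: each group holds each number, so the block cannot change a difference. The deviations of control 1 and APPSw 1 from their group means had a correlation of -0.02 over the probe sets tested. This is 1 contrast per group, so it cannot tell whether same-numbered arrays share more than a number. Signal over background limits Cdh5, Kdr, Tek and Tie1, which were under the filter.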
